A study of Mus musculus with 59 samples.

Results

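The 8 genes described here are Git1, Alox12b, Nbl1, Drd5, Scgn, Tmprss6, Rimklb and Abca6, of 54232 mouse genes counted. They were selected on the strong change of their counts between mutant and WT hippocampi, in mice with an expanded Atxn1 allele and without a numerical threshold, so their hippocampal values below are a description and carry no test. They were then followed in the cerebellum, brainstem, striatum and cortex, whose libraries the selection rule did not use. By their labels, those regions came from the same mice as the hippocampi, so differences between animals can carry over and the follow-up is not in independent animals. The study compared 3 genotypes of C57BL/6 mice aged 10 weeks. WT mice carried no altered Atxn1 allele. Atxn1 154Q/2Q mice (154Q) carried a knock-in allele that encodes 154 glutamines, a model of spinocerebellar ataxia type 1, beside a normal allele. In the genotype Atxn1 154Q[V591A;S602D]/2Q, called 154Q-AXH here, the expanded allele also carried V591A and S602D. These substitutions, named by their human positions and made by CRISPR/Cas9 editing, lie in the AXH domain and disrupt binding of ATXN1 to the repressor CIC. By its label, each library was 1 region of 1 mouse, and libraries whose counts depart from their label are described below. The labels name 12 mice and 59 libraries, with 4 per genotype and region but 3 for the brainstem of 154Q-AXH mice.

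ATXN1 is a nuclear protein that acts on transcription with DNA-binding partners, among them CIC, a repressor of transcription that binds short DNA motifs. Expansion of its glutamine tract causes spinocerebellar ataxia type 1, best known for loss of Purkinje cells, although the protein is made in neurons throughout the brain. The hippocampus holds the pyramidal neurons of the CA fields and the granule neurons of the dentate gyrus, which serve memory. The 8 genes belong to no single pathway. They encode a synaptic scaffold (Git1), a lipid-oxidizing enzyme (Alox12b), a secreted antagonist of bone morphogenetic proteins (Nbl1), a dopamine receptor (Drd5), a calcium sensor (Scgn), a membrane-bound protease (Tmprss6), a peptide-forming ligase (Rimklb) and a membrane transporter (Abca6).

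Several libraries stood apart from the rest. The hippocampal library of mouse 154Q-76 had 187 CPM (a gene's count relative to the library total after TMM scaling) of Xist and 53.8 CPM of Ddx3y, where every other hippocampal library was high in only 1 of them. In it the median of 24 brainstem markers was 57.7% of their WT brainstem level, against at most 0.418% in the other hippocampal libraries. The members' hippocampal fold changes and the hippocampal calls of pathway list genes are therefore given with and without it. Calls of cell type markers are given only with it. The cortical library of mouse WT-221 was high in Xist, unlike the other libraries of that mouse, and the 8 calls of members in cortex (4 in each mutant) all held without it. Every library of mice 154Q-75 and 154Q-AXH-217 was high in Xist (422 to 1161 CPM) with at most 1.24 CPM of Ddx3y, whereas the WT libraries, apart from that cortical one, showed the opposite, so each mutant group held 1 mouse with the female pattern and WT none. With the Xist level as a covariate in the fits by region, the only call of a member to be lost was that of Drd5 in the 154Q striatum (adjusted p = 0.0785, edgeR). Of the cortical libraries, those labelled as from mice 154Q-AXH-207 and 154Q-76 have file names that disagree with their labels, and the labels were used. With the labels of this pair exchanged, or with the pair left out, no call of a member in cortex changed. The 8 markers of striatal spiny neurons, the main neurons of the striatum, were present in every striatal library, but their summed level ran from 1700 to 5817 CPM in WT, from 625 to 1117 CPM in 154Q and from 573 to 3212 CPM in 154Q-AXH libraries. The 7 markers of cortical projection neurons summed in striatum to 274 to 743 CPM (WT), 428 to 544 (154Q) and 245 to 602 (154Q-AXH). In cortex they summed to 753 to 895, 556 to 656 and 553 to 623 CPM in the same order. The share of cortical tissue in the striatal libraries was not tested, so matching calls in both regions need not be separate observations. The mouse numbers form a low and a high series, with 154Q mice in the low series (154Q-69 to 154Q-76), 154Q-AXH mice in the high series (154Q-AXH-207 to 154Q-AXH-218) and WT mice in both (WT-70 and WT-77, WT-220 and WT-221). Atxn1 was counted in every library, from 64.6 to 81.7 CPM in WT, 69.1 to 97.7 CPM in 154Q and 89.6 to 98.4 CPM in 154Q-AXH hippocampi, and these counts do not tell the alleles apart. In bulk tissue, fewer cells of a type and less RNA per cell cannot be told apart. Counted read pairs per library ranged from 64416717 to 112343574 in the cerebellum, brainstem and hippocampus and from 28058359 to 54719126 in the striatum and cortex.

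In the hippocampus, 6 of the 8 genes were lower and 2 were higher in both mutants than in WT. By the rule of adjusted p under 0.05 used elsewhere, 5.91% of the 21454 hippocampal genes tested were called in 154Q (3.39% lower and 2.52% higher) and 1.3% in 154Q-AXH (0.671% lower and 0.629% higher). The members' place among them follows from how they were chosen. Without the library of mouse 154Q-76, 6.06% and 3.61% were called, and the members' log2 fold changes in 154Q moved by little, from -2.52 to -2.70 for Alox12b, from -3.13 to -3.35 for Tmprss6 and from -1.20 to -1.15 for Drd5. The same leave-out gave -0.84 for Git1, -0.96 for Nbl1, -2.02 for Scgn, 0.45 for Rimklb and 0.89 for Abca6, and moved the 154Q-AXH values by less than 0.01. The 4 markers of CA1 neurons summed to 315 to 356 CPM in WT hippocampi, 147 to 244 CPM in 154Q and 67.5 to 231 CPM in 154Q-AXH. The 7 markers of CA2 and CA3 neurons summed to 248 to 276, 120 to 169 and 178 to 206 CPM in the same order. The 7 markers of dentate granule neurons summed to 432 to 581, 300 to 328 and 364 to 893 CPM, with 3 called lower in 154Q (median log2 fold change -0.64) and 0 in 154Q-AXH. Of the CA2 and CA3 markers, 3 were called lower in 154Q (median -0.75) and 2 in 154Q-AXH (median -0.62). Of the CA1 markers, 1 was called lower in each mutant (medians -0.56 and -0.66). Without the mixed library the 154Q sums were 171 to 244 (CA1), 164 to 169 (CA2 and CA3) and 300 to 322 CPM (dentate). The calls and medians of these markers come from the fit with that library and were not recomputed without it. No marker of these lists is at 0 in these libraries, and the part of these shifts in the members' levels was not tested.

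**Figure D1:**
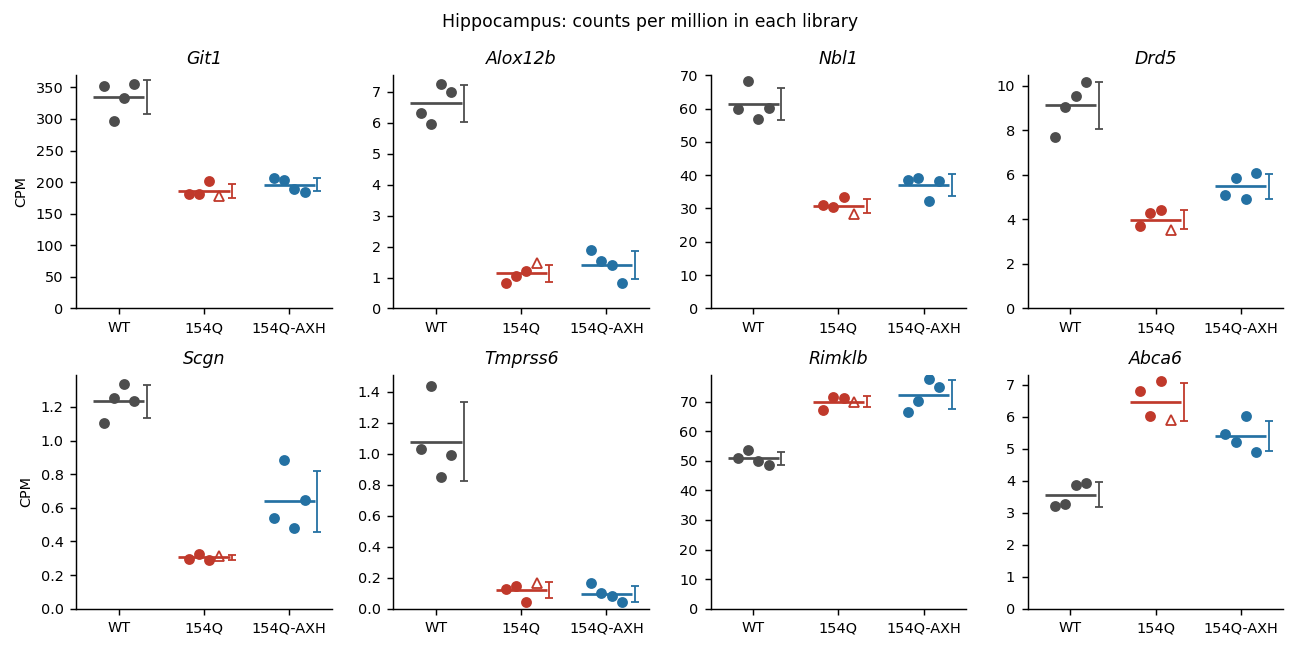
CPM (vertical axes from 0) of the 8 genes in each hippocampal library of WT, 154Q and 154Q-AXH mice, with a line at the mean and a bar of 1 SD (n = 4); the open triangle is the mixed library of mouse 154Q-76. In every panel all mutant libraries lie on one side of all WT libraries, lower for the first 6 genes and higher for Rimklb and Abca6. The genes were chosen for their hippocampal difference, so this separation is a description, and the share of all genes so separated was not counted.

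Promoter sequences are shown because CIC and RFX1, both DNA-binding partners of ATXN1, recognize known letters, and because Alox12b and Rimklb moved in opposite directions in the same 3 regions. RefSeq windows of 300 bases (250 before to 50 after a transcript start, GRCm38.p6) were at hand for 6 of the 8 genes, with a pair of windows for Git1. No window of a member held the CIC motif TGAATGAA or TGAATGGA on either strand, which 1.3% and 1.21% of all 32851 promoter windows did. The RFX core site GTTGCC lay in the Scgn window alone, 18 bases after the start, and in 12.5% of all windows. The shares of G and C were 66% for Alox12b, 76.3% for Rimklb and 54.7% for Scgn, with a median of 52.7% over all windows. The windows below are printed 5′ to 3′ on the strand of the gene, at chr11:69156822-69157121 on the plus strand (Alox12b), chr6:122486256-122486555 on the minus strand (Rimklb) and chr13:23991165-23991464 on the minus strand (Scgn), with the RFX core site in capitals.
Alox12b: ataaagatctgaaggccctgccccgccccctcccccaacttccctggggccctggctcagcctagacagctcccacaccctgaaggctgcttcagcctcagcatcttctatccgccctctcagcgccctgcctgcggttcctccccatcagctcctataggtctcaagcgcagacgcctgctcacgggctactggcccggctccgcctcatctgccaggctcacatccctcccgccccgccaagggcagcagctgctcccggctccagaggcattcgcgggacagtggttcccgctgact
Rimklb: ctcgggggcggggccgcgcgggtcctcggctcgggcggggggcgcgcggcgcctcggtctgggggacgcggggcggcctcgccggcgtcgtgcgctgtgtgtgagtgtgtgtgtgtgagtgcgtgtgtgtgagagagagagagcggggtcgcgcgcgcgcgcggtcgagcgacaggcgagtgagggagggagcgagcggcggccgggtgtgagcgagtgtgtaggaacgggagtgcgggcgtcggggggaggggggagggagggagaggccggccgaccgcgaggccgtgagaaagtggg
Scgn: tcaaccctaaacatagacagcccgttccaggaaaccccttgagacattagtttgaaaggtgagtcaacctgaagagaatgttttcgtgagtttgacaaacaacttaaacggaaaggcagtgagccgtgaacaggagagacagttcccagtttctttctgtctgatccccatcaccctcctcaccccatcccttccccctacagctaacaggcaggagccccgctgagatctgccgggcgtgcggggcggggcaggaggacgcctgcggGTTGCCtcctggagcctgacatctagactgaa
A match is a description of letters only, and its absence in a window says nothing about a factor's binding.

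Git1 (chr11:77493562-77507786, plus strand) encodes a GTPase-activating protein for ARF and a scaffold that binds PIX exchange factors at synapses. It was the most abundant of the 8 genes, and in hippocampus its WT libraries held 352, 297, 333 and 355 CPM. The 154Q libraries held 181, 181, 202 and 179 CPM and the 154Q-AXH libraries 206, 203, 189 and 184 CPM. The mutant groups overlapped each other and neither overlapped WT, and the log2 fold changes were -0.85 (SE 0.07) and -0.77 (SE 0.07). In cortex, WT libraries held 513, 372, 427 and 433 CPM, 154Q libraries 341, 305, 279 and 314 CPM and 154Q-AXH libraries 318, 342, 326 and 327 CPM. Every mutant library was again under every WT library, and Git1 fell by 0.49 on the log2 scale in 154Q (SE 0.08, adjusted p = 0.00109, edgeR) and by 0.41 in 154Q-AXH (SE 0.08, adjusted p = 0.00546). In striatum, WT libraries held 403, 381, 328 and 462 CPM, 154Q libraries 279, 261, 247 and 251 CPM and 154Q-AXH libraries 292, 286, 209.4 and 304 CPM. Neither mutant group overlapped WT, and the fall of 0.60 in 154Q passed the test (SE 0.12, adjusted p = 0.0136), whereas the value of -0.53 in 154Q-AXH did not (SE 0.12, adjusted p = 0.0560), although DESeq2 called it (adjusted p = 0.00589). In brainstem, WT libraries held 165 to 175 CPM and 154Q libraries 144 to 157 CPM, a fall of 0.20 on the log2 scale (SE 0.04, adjusted p = 0.0385). That call is a narrow one, lost in 7 of 11 fits that left out 1 brainstem library, with adjusted p up to 0.134. In cerebellum, the log2 fold changes were -0.07 (154Q) and -0.09 (154Q-AXH), and neither passed the test. The 154Q libraries (103 to 107 CPM) nevertheless lay below all WT libraries (108 to 115 CPM) there, as they did in brainstem. Separation of groups is thus a description, and the share of all genes so separated was not counted in any region.

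Alox12b (chr11:69156989-69169792, plus strand) encodes 12R-lipoxygenase, known for building the lipid barrier of the skin. Its hippocampal level was 6.31, 5.95, 7.24 and 7.0 CPM in WT libraries, 0.815, 1.05, 1.20 and 1.48 CPM in 154Q and 1.90, 1.52, 1.41 and 0.822 CPM in 154Q-AXH. Every mutant library was far under the lowest WT library, and the log2 fold changes were -2.52 (SE 0.20) and -2.20 (SE 0.20). In cortex, WT libraries held 6.87, 6.71, 6.01 and 4.51 CPM, 154Q libraries 0.792, 1.22, 1.16 and 1.71 CPM and 154Q-AXH libraries 0.881, 1.33, 0.658 and 1.24 CPM. Neither mutant group overlapped WT, with a fall of 2.28 in 154Q (SE 0.21, adjusted p = 9.91e-06) and of 2.55 in 154Q-AXH (SE 0.22, adjusted p = 9.87e-06). In striatum, WT libraries held 5.08, 5.42, 1.70 and 4.52 CPM, 154Q libraries 0.548, 0.458, 0.608 and 0.333 CPM and 154Q-AXH libraries 0.751, 1.01, 0.247 and 1.51 CPM. The low WT value is that of mouse WT-220, whose striatal library had the highest spiny neuron marker level. The fall of 3.05 in 154Q (SE 0.44, adjusted p = 0.00219) and of 2.25 in 154Q-AXH (SE 0.43, adjusted p = 0.0224) passed the test, and without that library the log2 fold changes were -3.34 and -2.54. The 154Q-AXH call was lost in 5 of 12 fits without 1 library (WT-70, WT-77, WT-221, 154Q-AXH-207 or 154Q-AXH-209), with adjusted p from 0.0606 to 0.0796. In brainstem the gene lay at 1.06 to 1.45 CPM in WT, 1.00 to 1.25 CPM in 154Q and 1.22 to 1.67 CPM in 154Q-AXH, overlapping groups, and in cerebellum no library held more than 15 counts.

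Nbl1 (chr4:139082284-139092993, minus strand) encodes DAN, a secreted antagonist that binds bone morphogenetic proteins outside the cell. In hippocampus, WT libraries held 59.8, 68.2, 57.0 and 60.1 CPM, 154Q libraries 31.2, 30.3, 33.5 and 28.2 CPM and 154Q-AXH libraries 38.6, 39.1, 32.2 and 38.4 CPM. The 154Q-AXH libraries lay between the other groups apart from that of mouse 154Q-AXH-217, with log2 fold changes of -0.99 (SE 0.08) in 154Q and -0.72 (SE 0.08) in 154Q-AXH. In cortex, WT libraries held 73.5, 62.3, 60.5 and 62.7 CPM, 154Q libraries 40.6, 39.7, 40.8 and 43.9 CPM and 154Q-AXH libraries 35.5, 38.4, 29.8 and 46.8 CPM. Both mutants were under WT without overlap, and Nbl1 fell by 0.65 in 154Q (SE 0.10, adjusted p = 0.000891) and by 0.78 in 154Q-AXH (SE 0.10, adjusted p = 0.000276). In striatum, WT libraries held 51.9, 43.0, 30.8 and 56.4 CPM, 154Q libraries 23.5, 24.0, 28.2 and 27.1 CPM and 154Q-AXH libraries 25.7, 29.7, 15.5 and 40.2 CPM. The 154Q libraries lay below every WT library, the lowest of which was again that of mouse WT-220. The values of -0.82 in 154Q (SE 0.24, adjusted p = 0.0656, edgeR) and -0.71 in 154Q-AXH (SE 0.24, adjusted p = 0.203) did not pass the test. Without mouse WT-220 the 154Q value was -0.97 with an adjusted p of 0.0271 (edgeR), and DESeq2 called it with all libraries (-0.81, adjusted p = 0.0147). In brainstem the log2 fold changes were -0.02 in 154Q and -0.30 in 154Q-AXH, and in cerebellum 0.01 and -0.11, none past the test, while Nbl1 was well measured in both regions, at 23.3 to 63.5 CPM.

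Drd5 (chr5:38319367-38322518, plus strand) encodes the D5 dopamine receptor, a receptor of the D1 class that raises cyclic AMP. Of its 3152 exon bases, 1531 are shared with the antisense gene Gm26560, and read pairs there were assigned to neither gene, so its level rests on the other bases. In hippocampus, WT libraries held 7.70, 9.05, 9.54 and 10.2 CPM, 154Q libraries 3.72, 4.28, 4.43 and 3.52 CPM and 154Q-AXH libraries 5.10, 5.84, 4.90 and 6.07 CPM. The 3 groups did not overlap one another, and 154Q-AXH lay in the middle, with log2 fold changes of -1.20 (SE 0.11) and -0.73 (SE 0.11). Outside the hippocampus Drd5 was rare. In striatum, WT libraries held 1.18, 0.819, 1.95 and 1.25 CPM, 154Q libraries 0.572, 0.399, 0.865 and 0.499 CPM and 154Q-AXH libraries 1.03, 0.436, 0.524 and 0.576 CPM. The groups overlapped, and the fall of 1.21 in 154Q passed the test only narrowly (SE 0.32, adjusted p = 0.0478), while the value of -1.05 in 154Q-AXH did not (SE 0.34, adjusted p = 0.185). The 154Q call was lost in 9 of 12 fits without 1 striatal library, with an adjusted p of 0.123 and a log2 fold change of -0.91 without mouse WT-220, and with the spiny neuron marker level as a covariate (-0.83, adjusted p = 0.253). In cortex, the log2 fold change was -0.88 in 154Q (SE 0.36, adjusted p = 0.143) and -0.16 in 154Q-AXH, from 11 to 47 counts per library. In cerebellum the 154Q value pointed the other way, at 0.87 (SE 0.28, adjusted p = 0.0929, from 15 to 50 counts per library in WT and 154Q), and in brainstem both groups overlapped WT, whose libraries held 2.12 to 2.34 CPM.

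Scgn (chr13:23953456-23991214, minus strand) encodes secretagogin, a calcium sensor with EF-hands. It lies 21.6 Mb from Atxn1 on the same chromosome. In hippocampus, WT libraries held 1.11, 1.25, 1.34 and 1.23 CPM, 154Q libraries 0.298, 0.323, 0.289 and 0.313 CPM and 154Q-AXH libraries 0.541, 0.886, 0.480 and 0.644 CPM. The 154Q libraries were close together and the 154Q-AXH libraries filled the space between them and WT, with log2 fold changes of -2.002 (SE 0.20) and -0.95 (SE 0.18). These values rest on 88 to 133 counts per library in WT and 25 to 34 in 154Q. In the other regions Scgn was scarce, with at most 24 counts in every library but 1. That library was the striatum of mouse 154Q-75, with 216 counts (5.05 CPM), where the other 154Q striata had 5 to 12 counts. The striatal log2 fold change in 154Q was 2.75 (SE 1.18, adjusted p = 0.184) with that library and -0.08 without it. In cortex and cerebellum Scgn did not pass the filter on low counts, and in brainstem the log2 fold changes of 0.17 (SE 0.31) and 0.20 (SE 0.34) were under their SE.

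Tmprss6 (chr15:78439667-78468634, minus strand) encodes matriptase-2, a membrane-bound serine protease that cleaves hemojuvelin and so lowers the iron hormone hepcidin in the liver. In hippocampus, WT libraries held 1.03, 1.44, 0.849 and 0.991 CPM, 154Q libraries 0.126, 0.150, 0.0462 and 0.166 CPM and 154Q-AXH libraries 0.166, 0.0999, 0.0847 and 0.0411 CPM. Both mutants were far under WT, at 3 to 18 counts per library against 59 to 153, with log2 fold changes of -3.13 (SE 0.31) and -3.40 (SE 0.33). In striatum, WT libraries held 2.52, 1.39, 4.52 and 1.28 CPM, 154Q libraries 0.119, 0.0797, 0.234 and 0.416 CPM and 154Q-AXH libraries 0.250, 0.402, 0.247 and 0.324 CPM. No mutant library reached the lowest WT library, and Tmprss6 fell by 3.64 in 154Q (SE 0.52, adjusted p = 0.00207) and by 3.05 in 154Q-AXH (SE 0.52, adjusted p = 0.0130). Without mouse WT-220, the highest library, the values were -3.11 and -2.52, and with the spiny neuron marker level as a covariate -2.41 and -2.29, all with adjusted p under the threshold. The marker levels of WT and 154Q striata did not overlap, so that covariate cannot be separated from the 154Q genotype. The 154Q-AXH call was lost without mouse 154Q-AXH-207 (-2.96, adjusted p = 0.0557). In cortex, where Tmprss6 did not pass the filter, WT libraries held 38, 12, 8 and 8 counts, 154Q libraries 1 to 4 and 154Q-AXH libraries 1 to 8. With every gene kept, the cortical log2 fold change in 154Q was -2.53 (SE 0.67, adjusted p = 0.0204) and in 154Q-AXH -1.65 (SE 0.59, adjusted p = 0.154), and mouse WT-70 alone held 38 of those counts. In brainstem (34 to 92 counts) and cerebellum (9 to 85 counts) all groups overlapped, and the log2 fold changes in 154Q were 0.01 (SE 0.35) and -0.54 (SE 0.65).

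Rimklb (chr6:122447296-122498761, minus strand) encodes a ligase that joins N-acetylaspartate to glutamate, giving the neuropeptide N-acetylaspartylglutamate. In hippocampus, WT libraries held 50.8, 53.7, 50.1 and 48.6 CPM, 154Q libraries 67.3, 71.6, 71.2 and 69.8 CPM and 154Q-AXH libraries 66.5, 70.04, 77.6 and 75.02 CPM. The mutants overlapped each other above WT, with log2 fold changes of 0.46 (SE 0.06) and 0.51 (SE 0.06). In cortex, WT libraries held 40.8, 54.5, 45.9 and 46.9 CPM, 154Q libraries 69.8, 74.2, 66.8 and 64.9 CPM and 154Q-AXH libraries 73.8, 64.5, 58.5 and 63.3 CPM. Every mutant library exceeded every WT library, and Rimklb rose by 0.55 in 154Q (SE 0.08, adjusted p = 0.000636) and by 0.47 in 154Q-AXH (SE 0.08, adjusted p = 0.00294). In striatum, WT libraries held 35.0, 34.9, 35.6 and 38.9 CPM, 154Q libraries 50.3, 57.8, 58.9 and 53.9 CPM and 154Q-AXH libraries 52.4, 49.3, 43.9 and 55.6 CPM. The WT libraries were close together here, mouse WT-220 included, and the gene rose by 0.61 (SE 0.08, adjusted p = 0.00116) and 0.48 (SE 0.08, adjusted p = 0.0130). In brainstem the values were 0.11 (SE 0.06) and 0.07 (SE 0.06), and in cerebellum 0.14 (SE 0.07) and -0.02 (SE 0.07), with overlapping groups and none past the test.

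Abca6 (chr11:110176820-110251776, minus strand) encodes a transporter of the ABCA family, whose members move lipids. In hippocampus, WT libraries held 3.21, 3.29, 3.87 and 3.93 CPM, 154Q libraries 6.81, 6.02, 7.12 and 5.91 CPM and 154Q-AXH libraries 5.46, 5.23, 6.03 and 4.91 CPM. The mutants were above WT without overlap, with log2 fold changes of 0.86 (SE 0.11) and 0.60 (SE 0.11). The 11 fibroblast markers summed to 69.5 to 120 CPM in WT, 63.9 to 79.1 CPM in 154Q and 67.7 to 95.3 CPM in 154Q-AXH hippocampi, the 154Q range being the same without the mixed library, with 0 called, and their part in the Abca6 result was not tested. In cortex, the values of 0.40 in 154Q (SE 0.16, adjusted p = 0.116) and 0.51 in 154Q-AXH (SE 0.16, adjusted p = 0.0614) did not pass the test, and the groups overlapped. In striatum they were 0.19 (SE 0.15) and 0.28 (SE 0.16), in brainstem 0.07 (SE 0.11) and 0.05 (SE 0.11) and in cerebellum 0.09 (SE 0.12) and -0.12 (SE 0.12), none past the test. DESeq2 called the 154Q-AXH value in cortex (0.52, adjusted p = 0.0255), as did edgeR without mouse WT-220 (0.64, adjusted p = 0.0316).

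**Figure D2:**
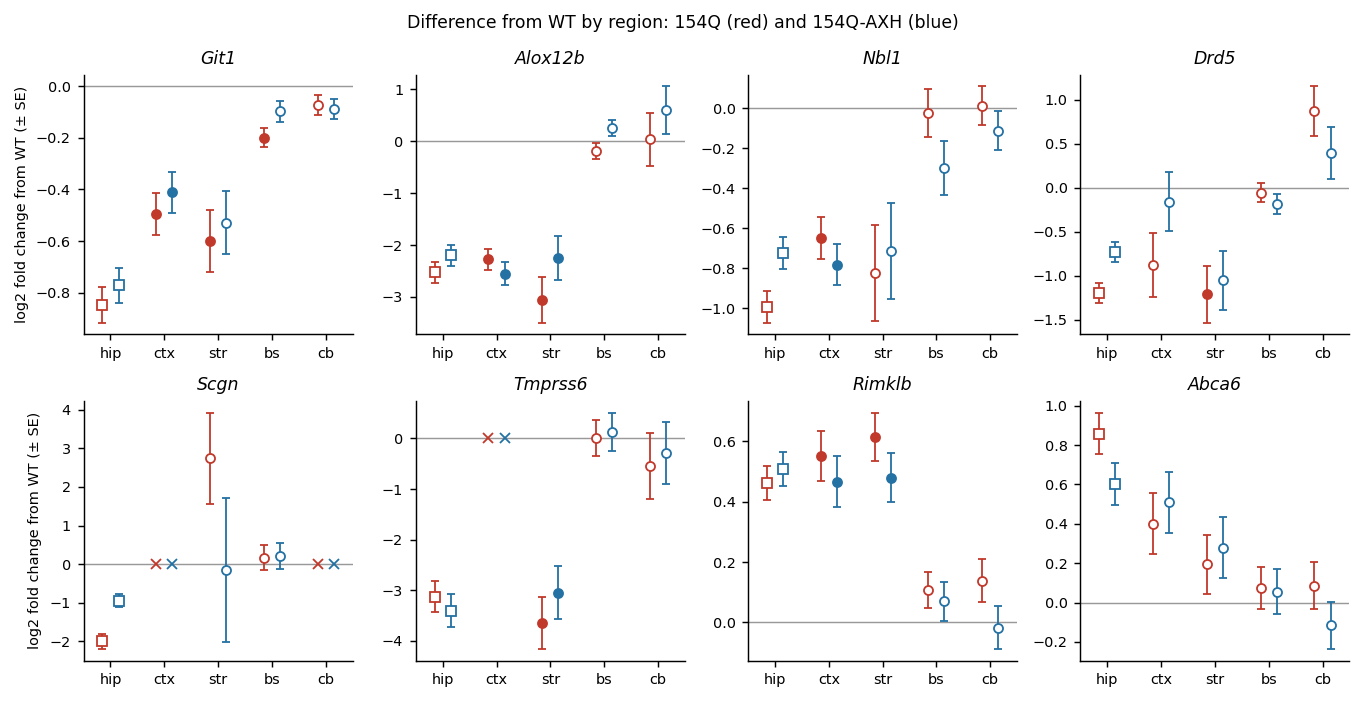
Log2 fold change from WT (± SE) of each gene in hippocampus (hip, squares, a description), cortex (ctx), striatum (str), brainstem (bs) and cerebellum (cb) for 154Q (red) and 154Q-AXH (blue), with filled circles for calls at an adjusted p under 0.05 (edgeR) and crosses where a gene did not pass the filter on low counts. Git1, Alox12b and Nbl1 lie below 0 and Rimklb above 0 in both the cortex and the striatum, while no filled circle stands in the cerebellum and only that of Git1 in the brainstem, and vertical scales differ between panels.

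By region, the cortex held 4 called members of the 6 that passed the filter in 154Q (Git1, Alox12b and Nbl1 lower, Rimklb higher), where 11.1% of all genes tested were called, and the same 4 in 154Q-AXH, where 7.15% were. The striatum held 5 called members of 8 in 154Q (Git1, Alox12b, Drd5 and Tmprss6 lower, Rimklb higher), against 5.68% of all genes, and 3 in 154Q-AXH (Alox12b and Tmprss6 lower, Rimklb higher), against 1.35%, where DESeq2 called 6 and 4. The brainstem held 1 in 154Q (Git1), against 0.538%, and 0 in 154Q-AXH, against 0.0138%, with 2 members under an unadjusted p of 0.05 in edgeR and 0 called by DESeq2. The cerebellum, the region of the Purkinje cells, held 0 of the 7 that passed in either mutant, against 5.22% in 154Q and 2.21% in 154Q-AXH, with 1 member under an unadjusted p of 0.05 in each and 0 called by DESeq2. The median log2 fold change of the members in 154Q was -0.57 in cortex and -0.71 in striatum, and -0.01 in brainstem and 0.03 in cerebellum, where the median over all genes tested was 0.01, -0.01, 0.0025 and 0.0012. In 154Q-AXH the members' median was -0.28 in cortex, -0.62 in striatum, 0.06 in brainstem and -0.09 in cerebellum, and that of all genes 0.0020, -0.0055, 0.00012 and -0.0072. The 7 cortical projection neuron markers summed to 753 to 895 CPM in WT, 556 to 656 CPM in 154Q and 553 to 623 CPM in 154Q-AXH cortices, with 2 called lower and 1 higher in 154Q and 4 lower in 154Q-AXH, none at 0, and their part in the cortical results was not tested. Both mutants were compared with the same WT libraries, so their calls are not independent of each other.

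The mutants belong to different mouse number series, and several calls were lost in fits that took the series into account, with the direction kept. With series as a covariate these were Git1 in the 154Q-AXH cortex (-0.39, adjusted p = 0.0525), the 154Q striatum (-0.59, adjusted p = 0.0967) and the 154Q brainstem (-0.18, adjusted p = 0.256), Drd5 in the 154Q striatum (-0.80, adjusted p = 0.450), and Alox12b (-1.80, adjusted p = 0.122) and Rimklb (0.43, adjusted p = 0.0822) in the 154Q-AXH striatum, all by edgeR. Against only the WT mice of the same series, which leaves 2 WT libraries, the lost calls in 154Q were Git1 (-0.52, adjusted p = 0.0774) and Rimklb (0.53, adjusted p = 0.0506) in cortex, Drd5 in striatum (-0.79, adjusted p = 0.242) and Git1 in brainstem (-0.17, adjusted p = 0.495). In the 154Q-AXH striatum Alox12b (adjusted p = 0.562), Tmprss6 (adjusted p = 0.195) and Rimklb (adjusted p = 0.461) were lost in that fit. Those 3 were also lost when only WT and 154Q-AXH were fitted (adjusted p = 0.116, 0.0580 and 0.0590). The calls of Alox12b and Nbl1 in the cortex of both mutants held in each of these fits.

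**Figure D3:**
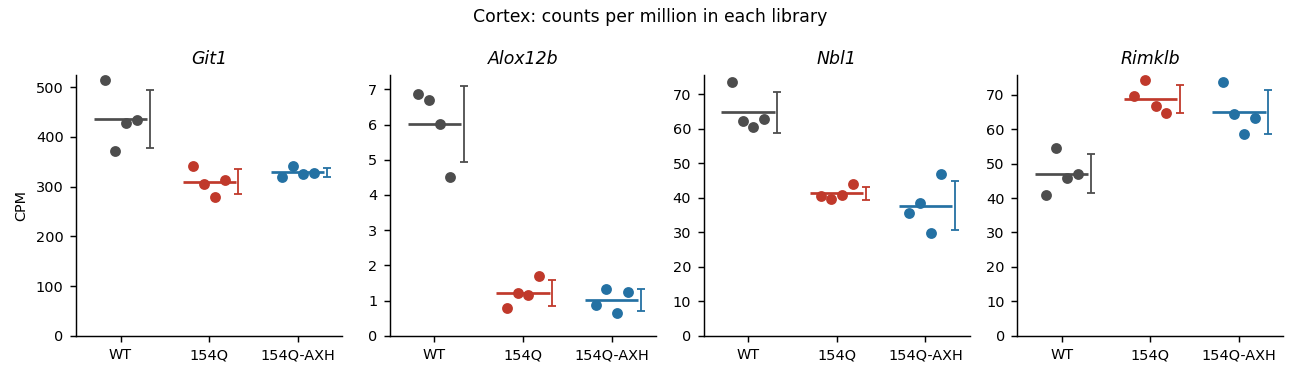
CPM (vertical axes from 0) of the 4 genes called in the cortex of both mutants, in each cortical library, with a line at the mean and a bar of 1 SD (n = 4). The mutant libraries lie below all WT libraries for Git1, Alox12b and Nbl1 and above them for Rimklb. The share of all genes so separated was not counted.

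Whether a mutant's effect differed among the cerebellum, brainstem, striatum and cortex was tested in 1 model of all 47 libraries outside the hippocampus. For 154Q it differed for 6 of the 8 members, against 5.4% of 22479 genes, with adjusted p of 1.47e-05 for Alox12b, 0.00119 for Rimklb, 0.00428 for Drd5, 0.00549 for Tmprss6, 0.00805 for Git1 and 0.0272 for Nbl1 (edgeR). Scgn (adjusted p = 0.262) and Abca6 (adjusted p = 0.601) did not pass. For 154Q-AXH it differed for 3, against 1.53%, with adjusted p of 6.19e-06 for Alox12b, 0.00688 for Rimklb and 0.0415 for Git1. Git1 lost its 154Q-AXH call in 16 of 47 fits without 1 library, with adjusted p up to 0.0966, and Nbl1 its 154Q call in 2, with adjusted p up to 0.0508. With the striatum, the region of uneven spiny neuron markers, left out, Tmprss6 lost its 154Q call (adjusted p = 0.402).

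The summed spiny neuron markers were lower in every 154Q striatal library than in any WT library. A fit with the marker level as a covariate therefore cannot separate that level from the 154Q genotype. The part of these markers in the striatal results was not tested. Of the 8 markers, 1 was called lower in 154Q and 0 in 154Q-AXH, and none was at 0 in any striatal library. With the summed marker level as a covariate, the 154Q count stayed at 5 members, with Nbl1 called in place of Drd5, and the 154Q-AXH count rose from 3 to 5 with Git1 and Nbl1. The 154Q log2 fold changes were then -4.14 for Alox12b, -2.41 for Tmprss6, -0.86 for Git1 and -1.34 for Nbl1. Without mouse WT-220 alone, 5 members were called in 154Q and 4 in 154Q-AXH. Without mouse 154Q-AXH-207, 1 member was called in 154Q-AXH. 

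**Figure D4:**
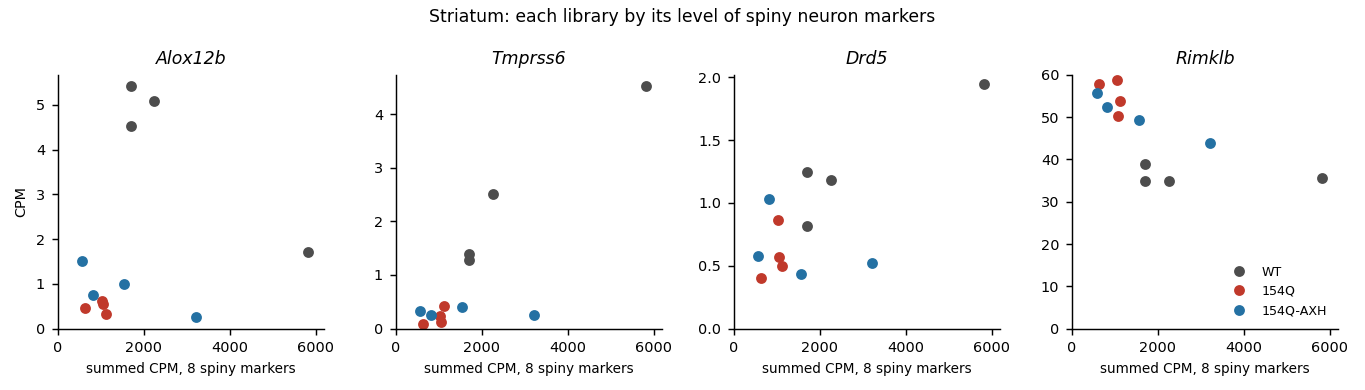
CPM (vertical axes from 0) of 4 of the genes in each striatal library against the summed CPM of the 8 spiny neuron markers (horizontal axes), colored by genotype. Rimklb is flat across WT libraries from 1700 to 5817 CPM of markers, whereas Tmprss6 and Drd5 are highest and Alox12b is lowest in the WT library with the most marker RNA.

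The comparison of 154Q-AXH with 154Q asks whether loss of CIC binding changed a member's level on the expanded allele. It called 0 members in every region tested by edgeR and 0 by DESeq2, where 0.0335% of all genes were called in cerebellum and 0% in brainstem, striatum and cortex. At an unadjusted p under 0.05 there was 1 member in cerebellum (Rimklb), 2 in brainstem (Git1 and Alox12b), 1 in striatum (Scgn) and 0 in cortex. In cortex the interval of the difference was narrow for the abundant genes, from -0.10 to 0.26 for Git1, from -0.37 to 0.10 for Nbl1 and from -0.27 to 0.10 for Rimklb on the log2 scale. These intervals are approximate, built from each SE with the same t quantile for all genes rather than from edgeR's own test. The interval was wide for the rare genes, from -0.93 to 0.38 for Alox12b and from -0.14 to 1.58 for Drd5. In hippocampus, as a description, 154Q-AXH exceeded 154Q by 1.05 for Scgn (SE 0.22), 0.46 for Drd5 (SE 0.12) and 0.27 for Nbl1 (SE 0.08), all genes lower in both mutants, and was under it by a log2 difference of -0.26 for Abca6 (SE 0.10). The difference was 0.08 for Git1 (SE 0.07), 0.05 for Rimklb (SE 0.06), 0.32 for Alox12b (SE 0.24) and -0.27 for Tmprss6 (SE 0.52). The 154Q libraries also served to choose the members, so these differences do not sort members into changed and unchanged. Without the mixed library the differences were 1.07 for Scgn, 0.41 for Drd5, 0.24 for Nbl1 and -0.29 for Abca6, while that of Alox12b grew to 0.50 (SE 0.25) and that of Tmprss6 was -0.06 (SE 0.61). Since 154Q-AXH and 154Q mice come from different number series, genotype and series can be separated only through the WT mice. With series as a covariate the hippocampal differences were -0.01 for Git1, 0.23 for Drd5 and -0.52 for Abca6.

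In WT mice the 8 genes were highest in different regions. Levels here are RPKM, that is CPM divided by the kilobases of exon shared with no other gene, which allows genes to be compared. Git1 was highest in cortex at 90.6 ± 12.2 RPKM (SD, n = 4) and striatum at 81.7 ± 10.6, a pair that did not differ past the test, then hippocampus at 67.8 ± 5.73, brainstem at 34.5 ± 0.776 and cerebellum at 21.9 ± 0.588. Nbl1 ran from 31.96 ± 2.89 in cortex, 29.5 ± 2.13 in hippocampus, 26.0 ± 3.52 in cerebellum and 22.5 ± 5.33 in striatum to 14.2 ± 2.13 RPKM in brainstem, and the cerebellum did not differ from cortex or striatum past the test. Rimklb varied least, from 10.2 ± 0.794 in brainstem, 8.86 ± 0.316 in hippocampus, 8.39 ± 0.986 in cortex and 7.10 ± 0.511 in cerebellum to 6.45 ± 0.315 RPKM in striatum, where striatum and cerebellum did not differ past the test.

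The other members were rare. Drd5 was at 5.52 ± 0.662 RPKM in hippocampus, 1.35 ± 0.0619 in brainstem, 0.807 ± 0.303 in striatum, 0.525 ± 0.198 in cortex and 0.128 ± 0.0122 in cerebellum, and striatum and cortex did not differ past the test. Alox12b was at 2.67 ± 0.261 RPKM in hippocampus, 2.49 ± 0.438 in cortex, 1.72 ± 0.689 in striatum, 0.490 ± 0.0694 in brainstem and 0.0327 ± 0.0129 in cerebellum, so it was scarcest in the cerebellum. Its cortex and striatum did not differ past the test. Abca6 was highest in brainstem at 1.43 ± 0.0596 RPKM, followed by hippocampus at 0.649 ± 0.0734, striatum at 0.472 ± 0.0559, cortex at 0.429 ± 0.0835 and cerebellum at 0.328 ± 0.0300, and striatum and cortex did not differ past the test. Scgn was at 0.747 ± 0.0607 RPKM in hippocampus and at most 0.124 ± 0.0841 elsewhere, and striatum, brainstem and cortex did not differ past the test. Tmprss6 was at 0.730 ± 0.463 RPKM in striatum, 0.314 ± 0.0718 in hippocampus, 0.166 ± 0.0623 in brainstem, 0.132 ± 0.133 in cortex and 0.103 ± 0.115 in cerebellum, and the last 3 did not differ past the test. The WT hippocampal libraries also served to choose the genes, so tests were read only among the other 4 regions, where 35 of 48 pairs of a member differed. Of all 22200 genes tested, 71.8% differed between striatum and cerebellum, 70.3% between cortex and cerebellum, 65.4% between brainstem and cerebellum, 66.1% between striatum and brainstem, 65.1% between cortex and brainstem and 10.7% between cortex and striatum. The Nbl1 call between cortex and striatum was lost in 3 of 4 fits without 1 mouse. Without mouse WT-220, Tmprss6 lost its call between cortex and striatum (adjusted p = 0.164, edgeR). Abca6 (0.166) and Rimklb (0.0504) then lost theirs between cortex and cerebellum, where Nbl1 gained one (0.0352). Rimklb between cortex and brainstem was lost without WT-70 (0.0626). Without WT-77, Drd5 between striatum and brainstem was lost (0.0616) and Tmprss6 between brainstem and cerebellum gained (0.0154).

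**Figure D5:**
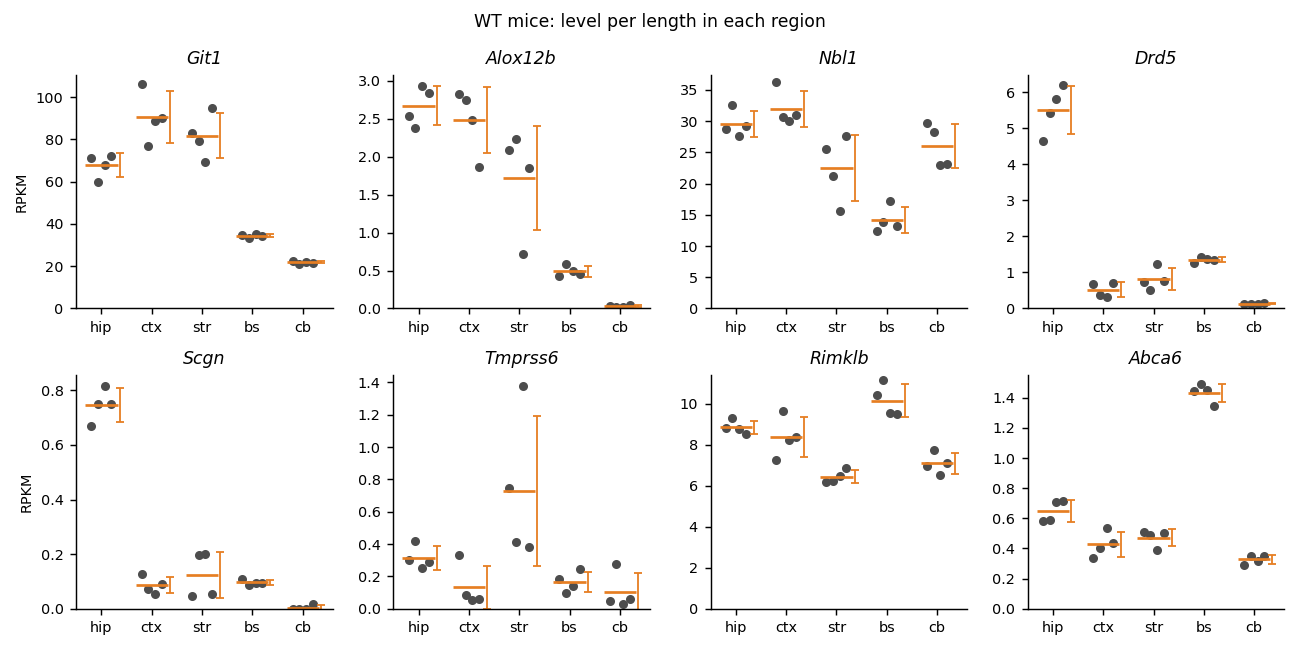
RPKM (CPM per kilobase of unshared exon, vertical axes from 0) of the 8 genes in the hippocampus (hip), cortex (ctx), striatum (str), brainstem (bs) and cerebellum (cb) of 4 WT mice, with a line at the mean and a bar of 1 SD. Drd5 and Scgn are highest in hippocampus, Tmprss6 in striatum, Abca6 and Rimklb in brainstem and Git1 in cortex.

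Across the 47 libraries outside the hippocampus, each centred on the WT mean of its region, Git1, Alox12b and Nbl1 varied together, with Pearson r of 0.87 (Git1 and Alox12b), 0.86 (Git1 and Nbl1) and 0.86 (Alox12b and Nbl1). Rimklb varied against Git1 (-0.81) and Alox12b (-0.82), and Drd5 followed Git1 less closely (0.66). These values are a description without a test, since libraries of a genotype share their shift from WT and the libraries of a mouse share the animal. Among 17554 genes kept in all 4 regions, the genes most like Git1 were Epop (r = 0.94) and Ppp1r37 (0.93), those most like Alox12b were Camk2n1 and Tnnc1 (both 0.93) and those most like Nbl1 were Rilpl1 (0.91) and Etnk2 (0.90). Pnck (0.92) and Gng4 (0.91) were most like Rimklb, Chst1 (0.81) and Fam19a5 (0.80) most like Drd5 and Fsd1l (0.76) and Zfp157 (0.72) most like Abca6. Scgn and Tmprss6 were not kept in all 4 regions.

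Genes that act with the members were counted from 8 lists of 144 genes in all, with the 8 members themselves left out. They were chosen with earlier results of these data known, and over the 5 regions 92 calls were made in 154Q and 34 in 154Q-AXH. The shares of all genes called in 154Q, against which the counts are to be read, were 11.1% in cortex, 5.91% in hippocampus, 5.68% in striatum, 5.22% in cerebellum and 0.538% in brainstem, so that in cortex 1 to 3 calls in a list lie near the background. The median over all genes lay between -0.01 and 0.02 in every region. In hippocampus, the list calls went from 16 to 20 in 154Q (13 genes shared) and from 5 to 10 in 154Q-AXH (5 shared) without the mixed library. Around Git1, the 14 GIT and PIX scaffold genes had 3 higher and 2 lower in the 154Q cortex, 1 higher and 1 lower in cerebellum, 1 higher in hippocampus, 1 lower in striatum and 0 in brainstem. Pak3, a kinase that acts downstream of this scaffold, rose in 154Q by 0.36 in hippocampus (adjusted p = 0.0132), 0.30 in cerebellum (adjusted p = 0.0166) and 0.19 in cortex (adjusted p = 0.0348), and in 154Q-AXH by 0.35 in hippocampus (adjusted p = 0.0362) and 0.20 in cortex (adjusted p = 0.0323). The list's median in the 154Q cortex was 0.12, against 0.01 over all genes. Around Alox12b, 2 of 10 lipoxygenase genes that passed the filter were called in the 154Q hippocampus and in the cortex, 1 in striatum and 0 in cerebellum and brainstem, with a median of 0.04 in cortex. Aloxe3, which acts on the product of Alox12b in skin, rose in the striatum of 154Q by 0.86 (adjusted p = 0.00131) and of 154Q-AXH by 0.64 (adjusted p = 0.0185), opposite to Alox12b. Lta4h rose by 0.22 in the 154Q cortex (adjusted p = 0.0174) and 0.22 in hippocampus (adjusted p = 0.0251, but 0.0584 without the mixed library), and Ephx2 fell by 0.21 (adjusted p = 0.0200) and 0.35 (adjusted p = 0.0211) in the same regions.

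Around Nbl1, the list of bone morphogenetic protein signaling had 0 higher and 5 lower of 30 in the 154Q hippocampus, 1 higher and 4 lower of 27 in striatum, 0 higher and 4 lower of 27 in cortex, 2 lower of 27 in cerebellum and 0 of 30 in brainstem, and 4 lower in hippocampus without the mixed library. Its median was -0.14 in hippocampus, -0.15 in striatum and -0.09 in cortex. Fst, which encodes the secreted antagonist follistatin, fell in 154Q by 2.21 in hippocampus (adjusted p = 0.00389), 2.00 in striatum (adjusted p = 0.000879) and 1.90 in cortex (adjusted p = 9.02e-05). It also fell in 154Q-AXH by 1.63 in cortex (adjusted p = 0.000329) and 1.52 in striatum (adjusted p = 0.0112). Id4, an inhibitor of DNA binding and a target of this pathway, fell in 154Q by 0.49 in hippocampus (adjusted p = 0.00455), 1.10 in striatum (adjusted p = 0.0429), 0.39 in cortex (adjusted p = 0.0065) and 0.32 in cerebellum (adjusted p = 0.00095). In 154Q-AXH it fell by 0.41 in hippocampus, 0.34 in cortex and 0.30 in cerebellum. Around Drd5, the dopamine list had 2 higher of 15 in cerebellum, 1 lower of 16 in brainstem, 1 lower of 15 in striatum, 1 higher and 1 lower of 14 in cortex and 0 of 15 in hippocampus. Its median was -1.04 in the 154Q striatum, where the spiny neuron markers had a median of -1.49, and -0.10 in cortex. Drd1, Drd2, Ppp1r1b and Rgs9 are in both the dopamine list and the spiny neuron markers, so these striatal medians are not separate observations. Ppp1r1b, which encodes DARPP-32, a target of D1 class receptors, fell in cortex by 0.95 in 154Q (adjusted p = 0.00255) and 0.82 in 154Q-AXH (adjusted p = 0.00981). In striatum the mean of Ppp1r1b, itself on the list of spiny neuron markers, was 1032 CPM in WT and 324 CPM in 154Q with an adjusted p of 0.0800. Rgs9 rose in the 154Q cerebellum by 0.78 (adjusted p = 0.000307) and Pde1b by 0.38 (adjusted p = 0.00858).

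Around Scgn, the list of EF-hand calcium sensors and buffers had more calls in 154Q than any of the other 7 lists. In 154Q it had 3 higher and 7 lower of 19 in cerebellum, 3 lower of 20 in brainstem, 4 lower of 21 in hippocampus, 6 lower of 19 in striatum and 11 lower of 20 in cortex, with 0 higher in the last 4 regions, and 5 lower in hippocampus without the mixed library. The 7 markers of cerebellar granule and Purkinje neurons summed to 7088 to 7504 CPM in WT, 5949 to 6233 CPM in 154Q and 6575 to 6881 CPM in 154Q-AXH cerebella, with 4 called lower in 154Q (median -0.28) and 2 in 154Q-AXH, none at 0, and their part in the cerebellar counts was not tested. Calb1 is in both these markers and the EF-hand list. The median log2 fold change of the EF-hand list in the 154Q cortex was -0.26, against 0.01 over all genes, of which 11.1% were called. In 154Q-AXH it had 1 higher and 4 lower in cerebellum, 0 in brainstem, 1 lower in hippocampus, 2 lower in striatum and 3 lower in cortex. Cabp7, a calcium-binding protein of the calmodulin family, was lower in 154Q in all 5 regions, by 1.23 in cortex (adjusted p = 0.00460), 1.22 in striatum (adjusted p = 2.44e-05), 0.82 in hippocampus (adjusted p = 0.00142), 0.31 in brainstem (adjusted p = 0.0116) and 0.26 in cerebellum (adjusted p = 0.0390). Hpcal1, a visinin-like sensor, fell in 154Q by 0.48 in cerebellum (adjusted p = 1.12e-05), 0.73 in striatum (adjusted p = 0.0162) and 0.72 in cortex (adjusted p = 0.0440). Kcnip2, a subunit of potassium channels, fell by 0.83 in striatum, 0.58 in hippocampus (adjusted p = 0.0472, but 0.0566 without the mixed library) and 0.46 in cortex, and Cabp1 fell by 0.50 in cortex, 0.22 in cerebellum and 0.20 in brainstem.

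Around Tmprss6, the list of iron regulation and membrane-bound serine proteases had 2 higher of 19 in the 154Q hippocampus, 2 lower of 20 in cerebellum, 1 higher and 3 lower of 18 in cortex, 0 of 20 in brainstem and 0 of 19 in striatum, with a median of 0.04 in cortex. In cortex, Tfr2, a receptor that senses iron-loaded transferrin, rose by 0.69 in 154Q (adjusted p = 0.00198), Tfrc, the receptor for iron uptake, fell by 0.46 (adjusted p = 0.00227) and Hfe2, which encodes hemojuvelin, the substrate of Tmprss6, fell by 1.87 (adjusted p = 0.00863). Tfr2, Tfrc and Hfe2 were also called in the 154Q-AXH cortex, with log2 fold changes of 0.54, -0.40 and -1.84. Around Rimklb, 4 of 13 genes of N-acetylaspartylglutamate metabolism were lower in the 154Q cortex, 2 in striatum, 1 in brainstem and 0 in hippocampus and cerebellum (2 lower in hippocampus without the mixed library), with a list median of -0.24 in cortex, while Rimklb itself rose in cortex and striatum. Glul, glutamine synthetase of astrocytes, fell in 154Q by 0.37 in striatum (adjusted p = 0.0162), 0.29 in cortex (adjusted p = 0.00974) and 0.26 in brainstem (adjusted p = 0.0385). The 7 astrocyte markers were lower too, summing to 2887 to 3046 CPM in WT and 2260 to 2697 CPM in 154Q cortex, with 5 of 7 called lower, and their part in the Glul result was not tested. Around Abca6, 2 of 12 ABCA genes were higher in the 154Q hippocampus (4 without the mixed library), 1 of 11 in striatum and 2 of 12 in cortex, 2 of 12 were lower in cerebellum and 0 in brainstem, with medians of 0.27 in hippocampus and 0.16 in cortex. Abca7 rose in 154Q by 0.57 in hippocampus (adjusted p = 0.00965) and 0.50 in cortex (adjusted p = 0.00385) and fell by 0.27 in cerebellum (adjusted p = 0.0366).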

How the data were processed

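RNA of 5 brain regions from 12 mice was sequenced as read pairs. Per the submitters' processing notes, Trimmomatic 0.36 and STAR 2.7.2d with GRCm38.p6 (mm10) were used, and the authors deposited STAR's raw counts of read pairs per gene. The unstranded counts were used, so pairs in overlap with an antisense gene went to neither gene. Those notes also list DESeq2 1.28.1.

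Each region was fitted with edgeR 4.0.16 (R 4.3.3) on the counts as deposited, with all 3 genotypes in 1 model, TMM scaling, the filter on low counts by genotype and quasi-likelihood tests. Genes were called at a Benjamini-Hochberg adjusted p under 0.05 over all genes tested in the region. DESeq2 1.42.0 was an alternative. Depth was 28058359 to 112343574 counted pairs per library. Scripts were tested on simulated data. By their labels, replicates are separate mice, and regions share mice.

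The 8 members, the pathway lists and the tests were chosen with earlier results of these data known, so the members' hippocampal values carry no test. List genes were named when called in at least 3 regions, otherwise up to 3 by lowest adjusted p in 154Q, and for each member the 2 most correlated genes. Positions are from GENCODE M21 (GRCm38), promoters from RefSeq. RPKM used unshared exon length. The covariate of spiny neuron markers and the fit without striatum were chosen after seeing the data.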

Additional observations from a re-analysis of the deposited data

Results flagged for a closer look

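In 9 of 112 groups of 4 libraries (8.04%), 1 library lay far from the other 3 by Dixon's test, where chance flags about 1 in 20 groups. In 4 of the 9 that library is from mouse 154Q-75 or 154Q-AXH-217, the 2 mice whose libraries are high in Xist. In 4 of the 9 that library is from mouse 154Q-75 or 154Q-AXH-217, the 2 mice whose libraries are high in Xist. In cerebellum these were Git1 in mouse WT-70 (115 CPM, others 108 to 109), Tmprss6 in mouse WT-77 (0.981 CPM, 85 counts) and Scgn in mouse WT-221 (0.0274 CPM, 2 counts) and mouse 154Q-AXH-207 (0.0320 CPM, 3 counts), with 0 counts in the other libraries of both groups. In brainstem, Tmprss6 stood at 0.870 CPM in mouse 154Q-75 (others 0.438 to 0.483). In hippocampus, Git1 was at 202 CPM in mouse 154Q-75 (others 179 to 181) and Nbl1 at 32.2 CPM in mouse 154Q-AXH-217 (others 38.4 to 39.1). In striatum, Scgn was at 5.05 CPM in mouse 154Q-75 (others 0.0996 to 0.333). In cortex, Tmprss6 was at 1.11 CPM in mouse WT-70 (others 0.177 to 0.285).

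The 154Q effect differed among the cerebellum, brainstem, striatum and cortex for Git1 (adjusted p = 0.00805), Alox12b (adjusted p = 1.47e-05), Nbl1 (adjusted p = 0.0272), Drd5 (adjusted p = 0.00428), Tmprss6 (adjusted p = 0.00549) and Rimklb (adjusted p = 0.00119), by edgeR's test of genotype by region. The 154Q-AXH effect differed for Git1 (adjusted p = 0.0415), Alox12b (adjusted p = 6.19e-06) and Rimklb (adjusted p = 0.00688).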

How the results depend on the processing

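Of 477 counts of calls recomputed under alternatives, 456 were within 1.5 times the reported count. Of 3243 single values of a gene, 70 lost a call, 26 gained one and 3 in hippocampus moved past the larger group SD. A called value changed sign in 0 of them, but most values carry no call, and the tests between regions have no sign. Uncalled values did change sign, such as Tmprss6 in the 154Q cerebellum (-0.90 to 0.74 without 1 library). The brainstem count in 154Q went from 1 to 0 with only the 2 genotypes fitted, with mouse number series as a covariate and with WT mice of the same series. The striatal count went from 5 to 3 in 154Q with the series covariate, and from 3 in 154Q-AXH to 0 (2 genotypes), 1 (series covariate), 0 (WT mice of the same series) and 5 (spiny neuron markers). List calls in 154Q went from 92 to 51 (series covariate) and 54 (WT mice of the same series), and in 154Q-AXH from 34 to 64 (DESeq2) and 63 (spiny neuron markers). The causes were not tested.

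Without 1 library, the members called in 154Q ranged from 0 to 1 in cerebellum (Drd5 at 1.06, adjusted p = 0.0266 by edgeR, without mouse 154Q-75), 0 to 1 in brainstem, 4 to 6 in striatum and 4 to 4 in cortex, and in 154Q-AXH from 1 to 4 in striatum, 4 to 5 in cortex and 0 to 0 in cerebellum and brainstem. List calls ranged from 81 to 101 in 154Q and 25 to 39 in 154Q-AXH, region differences from 5 to 6 and 2 to 4 members, and WT pairs from 32 to 35.

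No paired analysis was possible within a region because each mouse number belongs to 1 genotype. Across regions, with mouse as a replicate block, the region difference was called for 6 members in 154Q and 3 in 154Q-AXH and 35 WT pairs, and the block changed no call. The block used the labelled mouse, from which the cortical library of mouse WT-221 departs in its Xist level. Counts under about 20 per library (Scgn in cortex and cerebellum, Alox12b in cerebellum, Tmprss6 in the hippocampus, striatum and cortex of mutants) limit what can be seen.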
